A study of Mus musculus with 10 samples.

Results

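Gad1, Nefl, Nefm, Svop, Pcdh9, Tspan7, Lypd1 and Ntrk2 are best known from neurons, and their reads were followed here in mammary fibroblasts. They are 8 of the 55486 genes in the count table and were selected by name, because in earlier results of these libraries they differed between the fibroblast subsets. The difference between subsets is therefore described below and not tested, whereas the response to tumor cells within a subset is tested. The libraries with tumor cells enter both comparisons, so the p-values of that response may not be independent of the choice of genes.

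RNA was sequenced from 10 libraries of 5 gels of collagen and basement membrane extract (BME). Normal fibroblasts (NFs) had been sorted out of the mammary tissue of mTmG mice (8-week-old, on an FVB/n background) as cells without EpCAM, CD49f, CD45 and CD31, and divided by the surface protein CD26. Several mice were pooled for a sort. The mTmG reporter makes cells express Tomato until Cre recombinase switches them to GFP. After culture on plastic, CD26+ NFs were switched with a Cre adenovirus, CD26- NFs kept Tomato, and both were mixed in equal parts in each NF gel. No tumor cells were added to gel 1. Tumor cells without NFs were grown in gel 2 (line 13-MCB-17) and gel 3 (line 10-SJK-221). NFs were combined with 13-MCB-17 in gel 4 and with 10-SJK-221 in gel 5. The lines derive from invasive lobular carcinomas of mice in which WapCre, active in mammary epithelium, deletes floxed Cdh1. After 7 days cells were sorted by color, with tumor cells as the uncolored cells. CD26- NFs and CD26+ NFs alone gave 1 library each, and every other group (CD26- NFs, CD26+ NFs and tumor cells in co-culture, tumor cells alone) gave 2. Because CD26- NFs did not receive the virus, its effect and the subset cannot be told apart. Only gel 1 held NFs alone, so culture and any peculiarity of that gel cannot be told apart either.

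The 8 genes belong to different parts of a neuron. Gad1 encodes a glutamate decarboxylase that makes the inhibitory transmitter GABA. Nefl and Nefm encode the light and medium chains of neurofilaments, the intermediate filaments of axons. Svop encodes a transporter-like protein of synaptic vesicles, Pcdh9 a protocadherin that mediates adhesion between cells, and Tspan7 a membrane protein of the tetraspanin family. Lypd1 encodes a membrane-anchored Ly6 protein that modulates nicotinic acetylcholine receptors, and Ntrk2 encodes TrkB, the receptor of the neurotrophin Bdnf.

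Promoter windows of RefSeq (GRCm38.p6, 250 bases before to 50 bases after a start site) were held for 5 of the 8 genes, namely Gad1, Pcdh9, Tspan7, Lypd1 and Ntrk2. The windows of these genes had 56.7% to 70.3% G and C, against a median of 52.7% over 32851 windows. The 250 bases before a start are shown for the gene that appeared in co-culture (Gad1), for a gene whose culture response passed the test in neither subset (Pcdh9), and for the pair whose order between subsets turned around (Lypd1 and Ntrk2). Capitals mark TTTATA, the reverse complement of TATAAA, at position -141 from the start of Gad1, and CGTCA, the reverse complement of TGACG, at -52 of Pcdh9 and -35 of Lypd1.
Gad1 (chr2:70561879-70562128, plus strand): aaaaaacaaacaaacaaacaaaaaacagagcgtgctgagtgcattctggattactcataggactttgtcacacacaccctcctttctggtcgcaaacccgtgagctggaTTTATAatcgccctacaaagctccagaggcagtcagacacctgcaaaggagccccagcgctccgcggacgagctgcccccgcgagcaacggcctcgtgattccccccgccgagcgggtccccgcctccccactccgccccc
Pcdh9 (chr14:93890680-93890929, minus strand): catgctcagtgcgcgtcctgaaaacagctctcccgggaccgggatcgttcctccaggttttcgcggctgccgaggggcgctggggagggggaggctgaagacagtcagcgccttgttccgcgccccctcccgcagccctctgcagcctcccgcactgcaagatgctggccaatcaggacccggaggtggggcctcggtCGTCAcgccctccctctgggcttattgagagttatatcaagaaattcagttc
Lypd1 (chr1:125912215-125912464, minus strand): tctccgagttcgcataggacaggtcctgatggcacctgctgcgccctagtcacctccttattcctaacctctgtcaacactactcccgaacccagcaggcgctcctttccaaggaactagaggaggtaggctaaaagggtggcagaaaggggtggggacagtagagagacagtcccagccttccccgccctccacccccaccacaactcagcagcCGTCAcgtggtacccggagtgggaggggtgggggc
Ntrk2 (chr13:58806319-58806568, plus strand): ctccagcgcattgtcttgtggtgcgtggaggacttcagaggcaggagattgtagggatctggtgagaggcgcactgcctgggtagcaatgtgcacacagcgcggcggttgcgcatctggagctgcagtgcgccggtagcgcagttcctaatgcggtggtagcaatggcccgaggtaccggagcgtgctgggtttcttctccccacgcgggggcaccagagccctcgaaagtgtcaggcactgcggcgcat

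Both strands of each whole window were searched for the left and right parts of the RE1 element bound by the neuronal silencer Rest (TTCAGCACC and GGACAGCGC), the cAMP response element TGACGTCA, its part TGACG (which lies inside it), the AP-1 motif TGANTCA and TATAAA. The last of these was found in the Gad1 window and is held by 13.6% of all windows. TGACG was found in both Pcdh9 windows and in 1 of 3 Lypd1 windows, and is held by 20.8% of all windows. The other motifs, held by 0.371%, 0.405%, 1.79% and 7.81% of all windows in the order given, had no match in these genes, which says only that these letters are not in the windows. Lypd1 here is represented by the start with the match.

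NF libraries held 14142334 to 17376216 counts and tumor libraries 15717569 to 18408940 counts. Values below are CPM, the counts of a gene per 1000000 counts of its library, unless stated otherwise. An observed 0 allows up to 3 counts, which is 0.163 to 0.212 CPM depending on the library, and intervals and floors cover counting error only. The NF libraries had the markers of fibroblasts, since the sum of 8 fibroblast markers was at least 23317 CPM in them and 38.7 to 177 CPM in tumor libraries. That sum was 74846 and 69497 CPM in CD26- and CD26+ NFs alone and lower in co-culture, at 37998 to 41536 CPM and 23317 to 29343 CPM, and its part in the culture responses was not tested. Dpp4, which encodes CD26, had 4, 12 and 4 counts in CD26+ NFs and 0, 0 and 1 in CD26- NFs, the direction of the labels on few reads. The sum of 6 epithelial markers was at most 0.140 CPM in NFs alone, 52.5 to 76.0 CPM in co-cultured CD26- NFs and 83.4 to 169 CPM in co-cultured CD26+ NFs, against 2480 to 3453 CPM in tumor cells. In bulk RNA, fewer expressing cells and less RNA per cell cannot be told apart.

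Markers of neurons and glia were in part at or under the floor and in part expressed. Of 16 pan-neuronal markers, Rbfox3, Elavl4, Dcx and Syt1 did not exceed 3 counts in any of the 6 NF libraries, and of 12 Schwann and glial markers the same held for Sox10, Gfap, Cdh19, Foxd3 and Mag. The sum of the pan-neuronal markers was 19.2 CPM in CD26- NFs alone, 34.5 CPM in CD26+ NFs alone, 78.2 to 81.1 CPM in co-cultured CD26- NFs and 82.5 to 106 CPM in co-cultured CD26+ NFs, with 8 to 12 of the 16 over the floor in the NF libraries. In co-culture 5 of the 11 tested rose and 2 fell in CD26+ NFs, and 4 rose and 0 fell in CD26- NFs (34.2% and 30.8% of all genes were called). Those that rose include Snap25, with under 10 counts in both libraries of NFs alone, so nothing is read from these counts. Syn1, a synapsin of synaptic vesicles, led that sum in co-culture, at 37.9 to 60.2 CPM from 2.11 and 3.09 CPM alone, and rose in CD26+ NFs (4.07, SE 0.340, edgeR adjusted p = 1.19e-06) and in CD26- NFs (4.23, SE 0.351, adjusted p = 9.56e-07). Uchl1, a ubiquitin hydrolase abundant in neurons, rose as well (3.44, SE 0.330, adjusted p = 3.98e-06 and 5.96, SE 0.409, adjusted p = 1.68e-07). The genes that fell in CD26+ NFs were Stmn2 (-1.39, SE 0.472, adjusted p = 0.0364) and Tubb3 (-0.90, SE 0.310, adjusted p = 0.0378), both microtubule genes of neurons. The Schwann and glial sum was 465 and 362 CPM in NFs alone (CD26- and CD26+) and 235 to 282 CPM in co-culture, most of it from Egr2, a transcription factor, at 221 to 452 CPM. The sum of 5 endothelial markers was 4.60 and 9.76 CPM in CD26- and CD26+ NFs alone and 8.06 to 10.1 and 14.8 to 24.4 CPM in co-culture. Pecam1 rose in both subsets (4.33, SE 0.536, adjusted p = 3.76e-05 and 2.80, SE 0.431, adjusted p = 0.000238). Tek, the highest of these markers in NFs alone, fell in CD26- NFs (-4.07, SE 0.672, adjusted p = 0.000419). Of the 4 tested, 2 rose and 1 fell in CD26- NFs, and 2 rose and 0 fell in CD26+ NFs (30.8% and 34.2% of all genes were called). The sum of 5 immune markers was 9.62 and 11.3 CPM alone and 20.3 to 32.9 and 33.0 to 55.0 CPM in co-culture. There most of it came from Cd68, which tumor cells held at 34.8 to 299 CPM. Lyz2 fell in CD26- NFs (-4.56, SE 0.602, adjusted p = 6.36e-05) and in CD26+ NFs (-2.49, SE 0.553, adjusted p = 0.00364). Of the 3 immune markers tested, 1 rose and 1 fell in each subset. Ptprc and Adgre1 were at or under the floor in NFs. The part of such cells in the results below was not tested.

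Across the NF gels the name "neuronal genes of CD26+ fibroblasts" held for 6 of the 8 genes in gel 1 and for 7 of 8 in gels 4 and 5. Nefl, Nefm, Svop, Pcdh9 and Tspan7 were higher in CD26+ NFs in all 3 gels. These 5 of 8 stand beside 36.4% of all tested genes with that direction in all 3 gels. Gad1 had no reads in gel 1, Lypd1 was higher in CD26- NFs in gel 1, and Ntrk2 was higher in CD26- NFs in gels 4 and 5. In the edgeR fit over the 3 gels, 6 of 8 genes passed an adjusted p-value of 0.05 where 7.53% of all genes did, but this contrast chose them and nothing is read from that count.

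**Figure D1:**
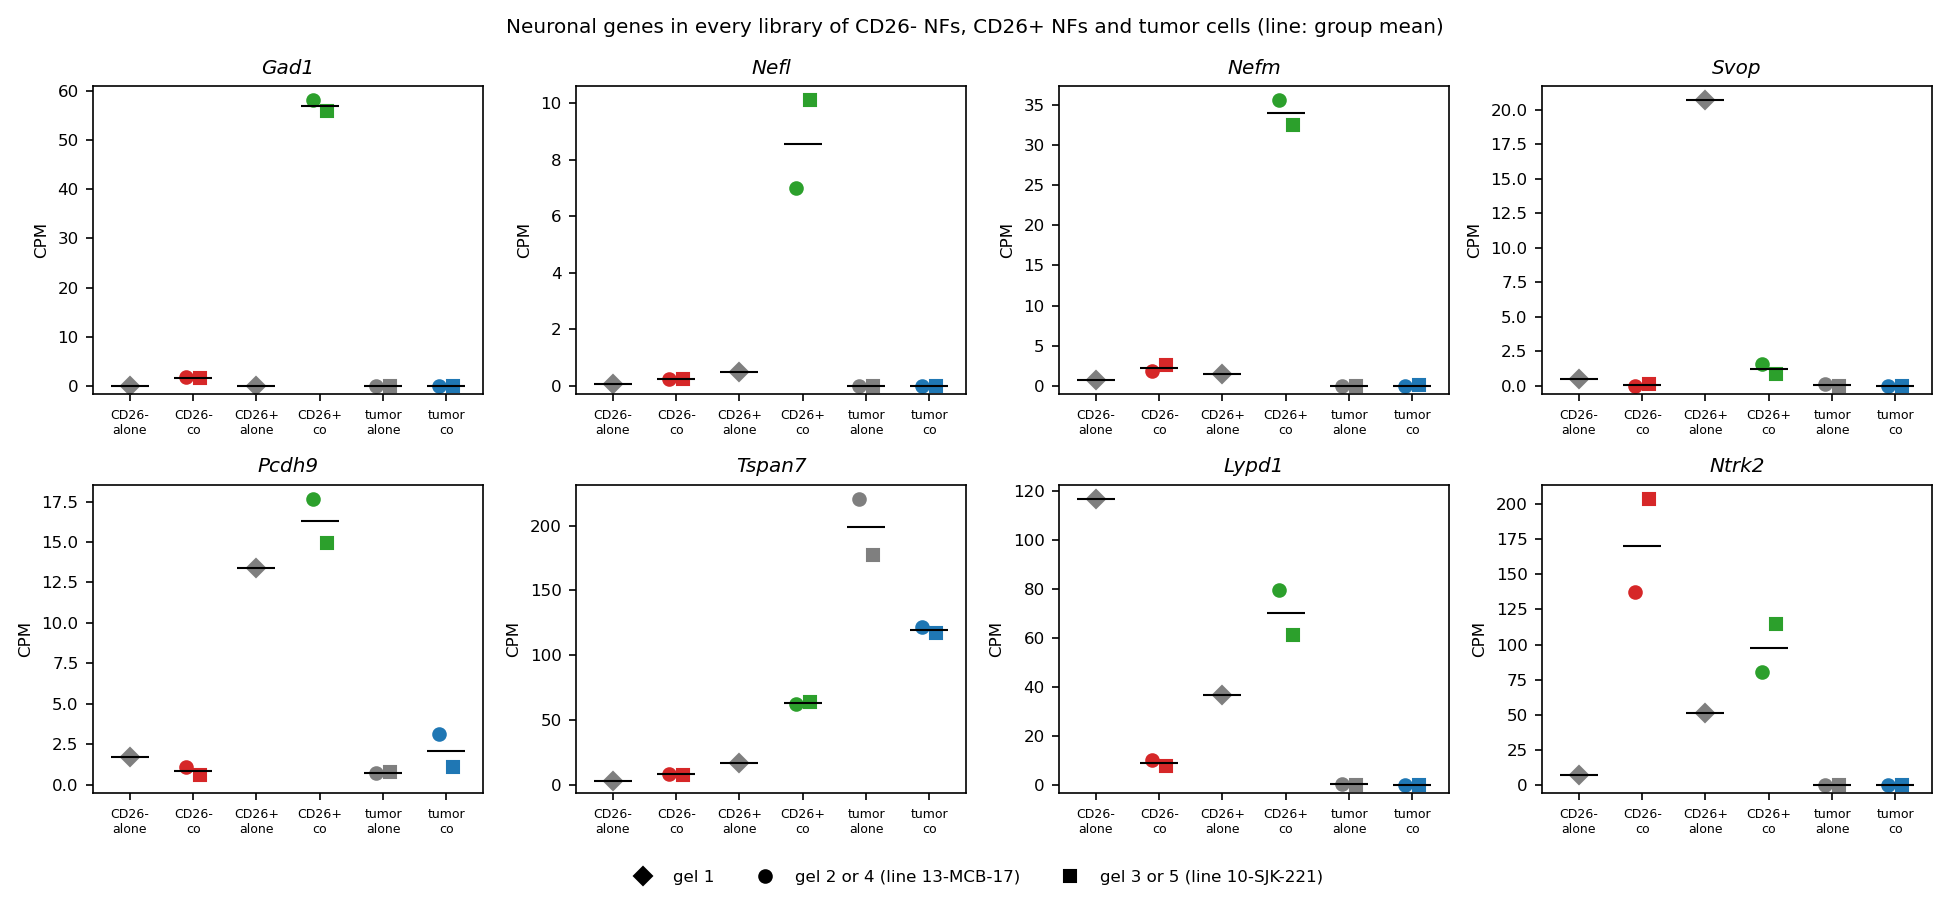
CPM (linear axis, 1 scale per gene) of the 8 genes in every library, by group (CD26- NFs, CD26+ NFs and tumor cells, each alone or in co-culture). Symbols give the gel and horizontal lines the group mean. Gad1, Nefl and Nefm stand out in co-cultured CD26+ NFs, Svop in CD26+ NFs alone, Tspan7 in tumor cells, and Lypd1 and Ntrk2 peak in CD26- NFs, alone and in co-culture respectively.

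The transmitter gene Gad1 (ENSMUSG00000070880, chromosome 2, 70553072 to 70602014, GRCm38) was absent from NFs alone and strongly expressed in CD26+ NFs beside tumor cells. It had 0 counts in both NF libraries of gel 1. In co-culture it had 905 and 792 counts in CD26+ NFs, which is 58.1 and 56.0 CPM in gels 4 and 5, and 28 and 27 counts in CD26- NFs, which is 1.70 and 1.55 CPM. In co-culture the level in CD26- NFs was 2.92% and 2.77% of that in CD26+ NFs of the same gel. How many CD26+ NFs entered the CD26- sort was not tested. All 4 tumor libraries had 0 counts. Against 3 counts in the libraries of NFs alone, Gad1 rose at least 271-fold in CD26+ NFs and at least 8.72-fold in CD26- NFs beside tumor cells. Gad1 entered the edgeR fits only through the co-cultured libraries in which it is high, so no p is given for these rises. The same holds for Nefl, Gad2, Slc32a1, Prph, Ina, Snap25, Chrna1, Lypd3 and Isl1, each with under 10 counts in both libraries of NFs alone. Their values are given as descriptions.

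The neurofilament chains were higher in co-cultured CD26+ NFs, as Gad1 was. Nefl (ENSMUSG00000022055, chromosome 14, 68083863 to 68089095) was at 0.491 CPM in CD26+ NFs alone and at 7.00 and 10.1 CPM in co-culture, while CD26- NFs had 0.0621, 0.242 and 0.230 CPM in gels 1, 4 and 5. Nefm (ENSMUSG00000022054, chromosome 14, 68082590 to 68124846) was at 1.47 CPM in CD26+ NFs alone and at 35.6 and 32.5 CPM in co-culture, against 0.745, 1.88 and 2.59 CPM in CD26- NFs. Only the co-cultured CD26+ libraries stood apart for these chains. In CD26+ NFs the culture response was a log2 fold change of 4.56 (SE 0.370, edgeR adjusted p = 9.03e-07) for Nefm and, with no p, 4.14 (SE 0.594) for Nefl. In CD26- NFs, Nefm rose by 1.65 (SE 0.439, adjusted p = 0.0117), while Nefl had 1 count alone and 4 in either co-culture gel, a change of 1.87 (SE 1.2).

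Fits without gel 4 or gel 5 hold 1 library per NF group and take the spread from the 4 tumor libraries alone. With no line term, differences between the tumor lines count as spread in these fits, which change the samples in 2 ways. In them the change of Nefm in CD26+ NFs was 4.52 and 4.57 and no longer passed (adjusted p = 0.0810 and 0.0707). That in CD26- NFs was 1.90 and 1.32 (adjusted p = 0.240 and 0.342), and the change of Nefl in CD26+ NFs was 4.40 and 3.80. The rise of Nefm in CD26- NFs was also lost with the gel as a random replicate block (1.59, adjusted p = 0.0867) and with the tumor libraries in the fit (adjusted p = 0.0581). Nefl and Nefm lie on opposite strands and overlap, over 32.8% of the exon length of Nefl and 19.2% of that of Nefm. Whether reads were counted by strand is not given in the sources used here, so part of the counts of either gene can come from the other. In the tumor libraries Nefl had 0 counts and Nefm at most 1.

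Of 27 genes for GABA synthesis, transport and receptors, 14 were tested, and in CD26+ NFs 6 rose and 3 fell in co-culture, where 34.2% of all genes were called. Of the 9 called, 2 had under 10 counts in both libraries of NFs alone. Slc32a1, the vesicular GABA transporter, had no counts in gel 1 and reached 1.28 and 1.77 CPM in CD26+ NFs of the co-cultures. It had at most 0.0606 CPM in CD26- NFs. Gad2, the other glutamate decarboxylase, had 9 counts in each co-cultured CD26+ library and at most 1 in CD26- NFs. Abat, the enzyme that degrades GABA, went the other way, from 72.2 to 3.53 and 3.89 CPM in CD26+ NFs (-4.24, SE 0.270, adjusted p = 1.02e-07) and from 108 to 6.91 and 10.5 CPM in CD26- NFs (-3.56, SE 0.251, adjusted p = 2.06e-07).

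Of the 8 other intermediate filament genes, 6 were tested, of which 3 rose and 1 fell in CD26+ NFs and 2 rose in CD26- NFs (34.2% and 30.8% of all genes were called). Of the 4 and 2 called, 2 and 1 had under 10 counts in both libraries of NFs alone. Nes, which encodes nestin, rose in both subsets (6.18, SE 0.324, adjusted p = 1.92e-08 in CD26+ NFs and 6.56, SE 0.325, adjusted p = 9.71e-09 in CD26- NFs). Prph, the peripheral neuronal filament gene, had 6 counts in CD26+ and 1 count in CD26- NFs alone, and 9.96 and 6.65 against 5.88 and 2.42 CPM in co-culture. Tumor cells of the same gels held more of Prph (10.2 and 11.0 CPM) than any NF library (at most 9.96 CPM). Nefh, the heavy neurofilament chain, did not exceed 3 counts in any library, and Ina, the internexin gene of neurons, did not exceed 1.34 CPM. In the co-cultured CD26+ libraries, where Nefl and Nefm were at their highest, Nefh had 1 and 0 counts.

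Svop (ENSMUSG00000042078, chromosome 5, 114026910 to 114091570), the synaptic vesicle protein, moved in the opposite direction and was high in CD26+ NFs without tumor cells. It was at 20.7 CPM (295 counts) in CD26+ NFs alone and at 1.54 and 0.849 CPM (24 and 12 counts) in co-culture. In CD26- NFs it had 8 counts alone (0.497 CPM) and 0 and 2 counts in co-culture. Only the CD26+ library of gel 1 was above 2 CPM. In CD26+ NFs Svop fell by 4.06 on the log2 scale (SE 0.451, edgeR adjusted p = 1.47e-05), and by 4.54 without gel 4 and 3.75 without gel 5, where with 1 library per group it did not pass (adjusted p = 0.110 and 0.112). In CD26- NFs the change was -2.86 (SE 1.04, adjusted p = 0.0528), and on these few counts it was -1.94 without gel 4 and -6.21 without gel 5. Its exons overlap Usp30 over 3.53% of their length.

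Within gel 1 Svop was 41.7-fold higher in CD26+ NFs (95% counting interval 20.9 to 97.4). In gel 5 it was 7.37-fold higher (1.64 to 67.8, on 12 against 2 counts). With 0 counts in CD26- NFs of gel 4, it was 8.48-fold higher against 3 counts, and the interval started at 6.38-fold. The closest relative, Svopl, had at most 2 counts in any library. Sv2a, a widely expressed vesicle protein, was at 2.17 to 6.68 CPM in NFs and did not pass in either subset (adjusted p = 0.947 in CD26+ NFs and 0.140 in CD26- NFs). Of the 32 listed genes of synaptic and secretory vesicles, 20 were tested, with 10 higher and 2 lower in co-cultured CD26+ NFs and 7 higher and 2 lower in co-cultured CD26- NFs, beside 34.2% and 30.8% of all genes called, but 4 of these 12 and 3 of these 9 had under 10 counts in both libraries of NFs alone. Snap25, a fusion protein of vesicles, went from 0.140 CPM to 5.01 and 3.11 CPM in CD26+ NFs, while CD26- NFs went from 0 to 5.57 and 3.34 CPM. Scg2, a granin of secretory granules, had 21.1, 2.83 and 2.97 CPM in the CD26+ libraries (gels 1, 4 and 5) against 5.09, 0.242 and 0.173 CPM in the CD26- libraries. The difference between subsets over the 3 gels was 2.60 (SE 0.372, edgeR adjusted p = 0.00633).

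**Figure D2:**
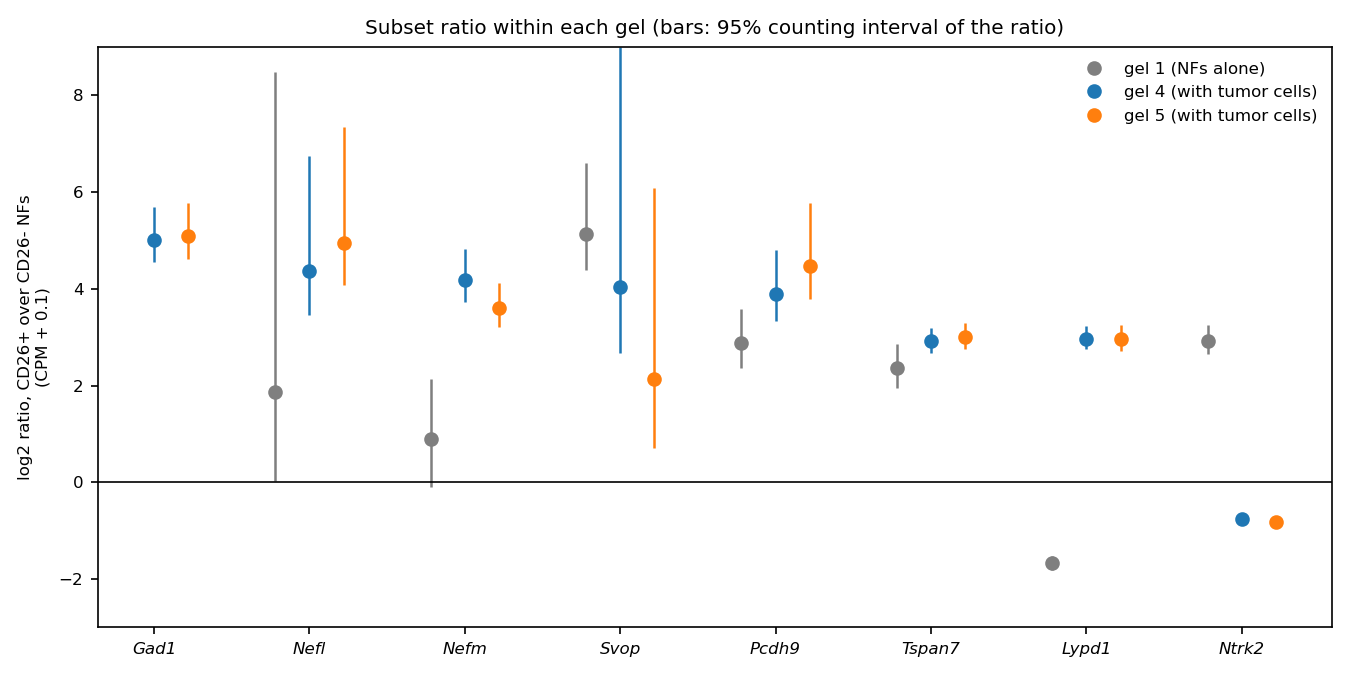
Log2 ratio of CD26+ to CD26- NFs within each gel (CPM plus 0.1) for the 8 genes, with bars for the 95% counting interval of the plain ratio. The bar of Svop in gel 4 has no upper end because CD26- NFs had 0 counts, and Gad1 has no point in gel 1. Points above 0 are higher in CD26+ NFs: Lypd1 lies below 0 in gel 1 only, and Ntrk2 in gels 4 and 5 only.

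The adhesion gene Pcdh9 (ENSMUSG00000055421, chromosome 14, 93013410 to 93890679) was higher in CD26+ NFs in every gel and had the smallest fitted culture response of the 8 genes in either subset. The CD26+ libraries had 13.4, 17.7 and 14.9 CPM (gels 1, 4 and 5) and the CD26- libraries 1.74, 1.09 and 0.575 CPM. With 1 library per subset in each gel, CD26+ NFs were 7.71-fold (95% counting interval 5.17 to 11.9), 16.2-fold (10.1 to 27.7) and 25.9-fold (13.8 to 54.9) higher. Its culture response did not pass in CD26+ NFs (0.32, SE 0.306, edgeR adjusted p = 0.444) or in CD26- NFs (-1.0, SE 0.445, adjusted p = 0.105). The 95% intervals of these log2 fold changes, before any adjustment, ran from -0.28 to 0.92 and from -1.87 to -0.13. Tumor cells had 0.706 and 0.763 CPM alone and 3.11 and 1.08 CPM in co-culture, which did not pass in a fit with the line as a term (1.40, SE 0.493, adjusted p = 0.0781). That value averages unlike lines, with 2.08 in 13-MCB-17 (adjusted p = 0.0275) and 0.50 in 10-SJK-221 (adjusted p = 0.944), each from 1 library per arm with the spread taken from NFs.

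Of 11 other nonclustered protocadherins, 9 were tested between subsets, where 7.53% of all genes passed, and Pcdh19 alone passed, in the other direction (-1.10, SE 0.162, edgeR adjusted p = 0.00659, with 113, 27.6 and 24.7 CPM in CD26+ NFs against 174, 49.7 and 63.1 CPM in CD26- NFs). In the culture response 1 rose and 3 fell in CD26+ NFs, and 1 rose and 4 fell in CD26- NFs, among 10 tested (34.2% and 30.8% of all genes were called). Pcdh1 rose in both subsets (1.89, SE 0.240, adjusted p = 4.82e-05 and 2.43, SE 0.247, adjusted p = 6.39e-06) and Pcdh18 fell in both (-1.46, SE 0.196, adjusted p = 7.5e-05 and -1.95, SE 0.196, adjusted p = 5.56e-06).

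Tspan7 (ENSMUSG00000058254, chromosome X, 10485158 to 10596605) was likewise higher in CD26+ NFs in each gel but was highest in tumor cells. CD26+ NFs had 16.9 CPM alone and 62.3 and 63.8 CPM in co-culture, and CD26- NFs had 3.23, 8.18 and 7.83 CPM. Tumor cells had 220.5 and 177 CPM alone and 122 and 117 CPM in co-culture, above every NF library. It rose in CD26+ NFs (1.94, SE 0.231, edgeR adjusted p = 2.76e-05) and in CD26- NFs (1.37, SE 0.268, adjusted p = 0.00154), and in tumor cells it fell by 0.75 on the log2 scale (SE 0.111, adjusted p = 0.00231). The rise in CD26+ NFs also passed without gel 4 or gel 5 (adjusted p = 0.0478 and 0.0477), whereas that in CD26- NFs did not (0.0890 and 0.0882). With only 1 tumor line, which leaves 1 library per arm and takes the spread from NFs, the change of Tspan7 in tumor cells was -0.90 in 13-MCB-17 (adjusted p = 0.0314) and -0.60 in 10-SJK-221, where it did not pass (adjusted p = 0.304).

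Tumor cells expressed Tspan7, so the level they would add to the NF libraries was computed on the assumption that their RNA enters in the proportion of the epithelial markers. Epithelial markers of co-cultured NFs summed to 1.96% and 2.2% of the tumor level of the same gel in CD26- NFs and to 3.11% and 4.89% in CD26+ NFs. At these shares tumor cells would carry 2.38 and 2.58 CPM of Tspan7 into the CD26- libraries and 3.78 and 5.74 CPM into the CD26+ libraries. Subtracting these left CD26- NFs with 5.80 and 5.24 CPM and CD26+ NFs with 58.5 and 58.0 CPM, where NFs alone had 3.23 and 16.9 CPM. For Pcdh9 the same shares came to at most 0.0966 CPM. Whether that assumption holds, and with it the part of tumor RNA in the level of Tspan7, was not tested.

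Of 26 other tetraspanins, 21 were tested, and between subsets 1 passed, beside 7.53% of all genes. It was Tspan18, lower in CD26+ NFs (-1.24, SE 0.132, edgeR adjusted p = 0.00168). In co-culture 8 rose and 1 fell in CD26+ NFs and 9 rose and 2 fell in CD26- NFs, 42.9% and 52.4% of those tested beside 34.2% and 30.8% of all genes. Cd9 rose in both (2.00, SE 0.229, adjusted p = 1.95e-05 and 1.94, SE 0.228, adjusted p = 2.32e-05), as did Cd82 (2.07, SE 0.257, adjusted p = 3.85e-05 and 1.66, SE 0.249, adjusted p = 0.000188). In co-cultured tumor cells Cd82 fell by 1.01 (SE 0.101, adjusted p = 0.000408), as Tspan7 did.

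Lypd1 and Ntrk2 changed their order between subsets when tumor cells were present. Lypd1 (ENSMUSG00000026344, chromosome 1, 125867622 to 125913101) was at 116.6 CPM in CD26- NFs alone and fell to 10.1 and 7.77 CPM in co-culture. In CD26+ NFs it was at 36.6 CPM alone and at 79.7 and 61.0 CPM in co-culture. CD26- NFs were thus 3.19-fold higher in gel 1, and CD26+ NFs were 7.92-fold (95% counting interval 6.73 to 9.37) and 7.85-fold (6.54 to 9.48) higher in gels 4 and 5. Lypd1 fell by 3.65 on the log2 scale in CD26- NFs (SE 0.225, edgeR adjusted p = 6.55e-08) and rose by 0.98 in CD26+ NFs (SE 0.234, adjusted p = 0.00585). Tumor cells had at most 3 counts.

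The fall in CD26- NFs passed without gel 4 or gel 5 (adjusted p = 0.0436 and 0.0461). The change in CD26+ NFs, 0.80 and 1.11 in these fits, did not (adjusted p = 0.244 and 0.141). Exons of Lypd1 overlap those of Gpr39 on the other strand over 17.1% of their length, so some reads can belong to Gpr39. Lynx1, a related modulator of nicotinic receptors, was at 31.4 to 69.5 CPM in NFs and fell slightly in CD26+ NFs (-0.81, SE 0.244, adjusted p = 0.0210). Of the 24 nicotinic receptor and Ly6 genes, 7 were tested, with 3 higher and 1 lower in co-cultured CD26+ NFs and 2 higher in co-cultured CD26- NFs, where 34.2% and 30.8% of all genes were called. Both genes called in CD26- NFs, Chrna1 and Lypd3, had under 10 counts in both libraries of NFs alone, as did 2 of the 4 in CD26+ NFs, and tumor cells held Lypd3 at 33.7 to 116 CPM. Chrna1, the muscle-type receptor subunit, had no counts in gel 1, and in co-culture CD26+ NFs had 33.0 and 28.9 CPM and CD26- NFs 14.3 and 10.1 CPM. Chrna7, the subunit of the homomeric neuronal receptor, was at 2.46, 5.40 and 3.18 CPM in CD26+ NFs against 0.248, 0.545 and 0.633 CPM in CD26- NFs, a difference over the 3 gels of 2.79 (SE 0.405, adjusted p = 0.00633).

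Ntrk2 (ENSMUSG00000055254, chromosome 13, 58806569 to 59133970) turned the other way. CD26- NFs had 6.71 CPM alone and 137 and 204 CPM in co-culture, the highest levels of any library. CD26+ NFs had 51.4 CPM alone and 80.7 and 115 CPM in co-culture. CD26+ NFs were 7.66-fold higher in gel 1 (95% counting interval 6.25 to 9.47), and CD26- NFs were 1.70-fold and 1.77-fold higher in gels 4 and 5. Ntrk2 rose by 4.74 in CD26- NFs (SE 0.379, edgeR adjusted p = 6.72e-07), also without gel 4 or gel 5 (adjusted p = 0.0397 and 0.0456). It rose by 0.97 in CD26+ NFs (SE 0.298, adjusted p = 0.0230). That smaller rise was 1.22 without gel 4 (adjusted p = 0.165) and 0.64 without gel 5 (0.339), and its call was also lost without the filter on low counts (0.0664) and with the tumor libraries in the fit (0.103).

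Some pericyte markers moved with Ntrk2 and others did not. The sum over 8 genes was 76.5 CPM in CD26- NFs alone and 105 CPM in CD26+ NFs alone, and 568 to 754 CPM and 344 to 461 CPM in co-culture. Cspg4 and Notch3, which are on that list, had the order of Ntrk2, with a smaller rise in CD26+ than in CD26- NFs (difference of the log2 fold changes -2.57, SE 0.405, edgeR adjusted p = 0.0144 and -2.10, SE 0.366, adjusted p = 0.0272). In CD26- NFs 4 of the 7 tested markers rose and 2 fell, beside 30.8% of all genes called. Those that fell were Rgs5 (-1.64, SE 0.469, edgeR adjusted p = 0.0173) and Abcc9 (-1.44, SE 0.451, adjusted p = 0.0270), both named after their values were seen. In CD26+ NFs 4 rose and 0 fell, beside 34.2% of all genes called, and Rgs5 did not pass (-0.37, SE 0.484, adjusted p = 0.576). Kcnj8 was higher in CD26+ NFs over the 3 gels by 2.09 (SE 0.527, edgeR adjusted p = 0.0436). Without gel 4 or gel 5 no gene passed the test of the difference (edgeR, with 473 and 692 genes at an unadjusted p under 0.05). With the gel as a random replicate block neither Cspg4 nor Notch3 passed (adjusted p = 0.396 and 0.247), nor with the tumor libraries in the fit (0.629 and 0.557). Higd1b, another pericyte marker, had 0 counts in all NF libraries. The part of pericytes in the level of Ntrk2 was not tested.

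Among the ligands and partners of TrkB, 13 of 15 listed genes were tested, with 2 higher and 2 lower in co-cultured CD26+ NFs and 3 higher and 2 lower in co-cultured CD26- NFs, which is 30.8% and 38.5% of those tested beside 34.2% and 30.8% of all genes. Bdnf, its ligand, was lower in co-culture in both subsets (-0.82, SE 0.215, adjusted p = 0.0102 and -0.75, SE 0.209, adjusted p = 0.0149) and over the 3 gels lower in CD26+ NFs (-0.69, SE 0.132, edgeR adjusted p = 0.0180). It ran from 14.8 to 41.9 CPM in NFs and did not exceed 1.40 CPM in tumor cells. Ngfr, the low-affinity receptor of the neurotrophins, was high in CD26+ NFs alone, as Svop was. It stood at 110 CPM in CD26+ NFs alone and at 0.899 and 2.76 CPM in co-culture, and at 10.2, 0.606 and 0.633 CPM in CD26- NFs, and fell in both subsets (-5.89, SE 0.364, adjusted p = 8.14e-08 and -3.96, SE 0.441, adjusted p = 1.43e-05).

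Counted together, 7 of the 8 genes passed the test of the culture response in CD26+ NFs, where 34.2% of 16231 genes did. Of these, 6 rose (19% of all genes) and 1, Svop, fell (15.2% of all genes). In CD26- NFs 5 passed, where 30.8% of all genes did, 4 of them higher (16.6% of all genes) and 1, Lypd1, lower (14.1% of all genes). These counts include Gad1 and, in CD26+ NFs, Nefl, which had 0 and at most 7 counts in NFs alone and entered the fits only through co-cultured libraries, so nothing is read from the totals. In tumor cells 2 of the 8 genes had enough reads to be tested and 1, Tspan7, passed, where 22.3% of 13197 genes did. Without gel 4 or gel 5, 1 of the 8 genes passed in CD26+ NFs (Tspan7) and 2 in CD26- NFs (Lypd1 and Ntrk2), where 2.47% and 2.99% of all genes were called in CD26+ NFs and 2.5% and 2.93% in CD26- NFs.

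**Figure D3:**
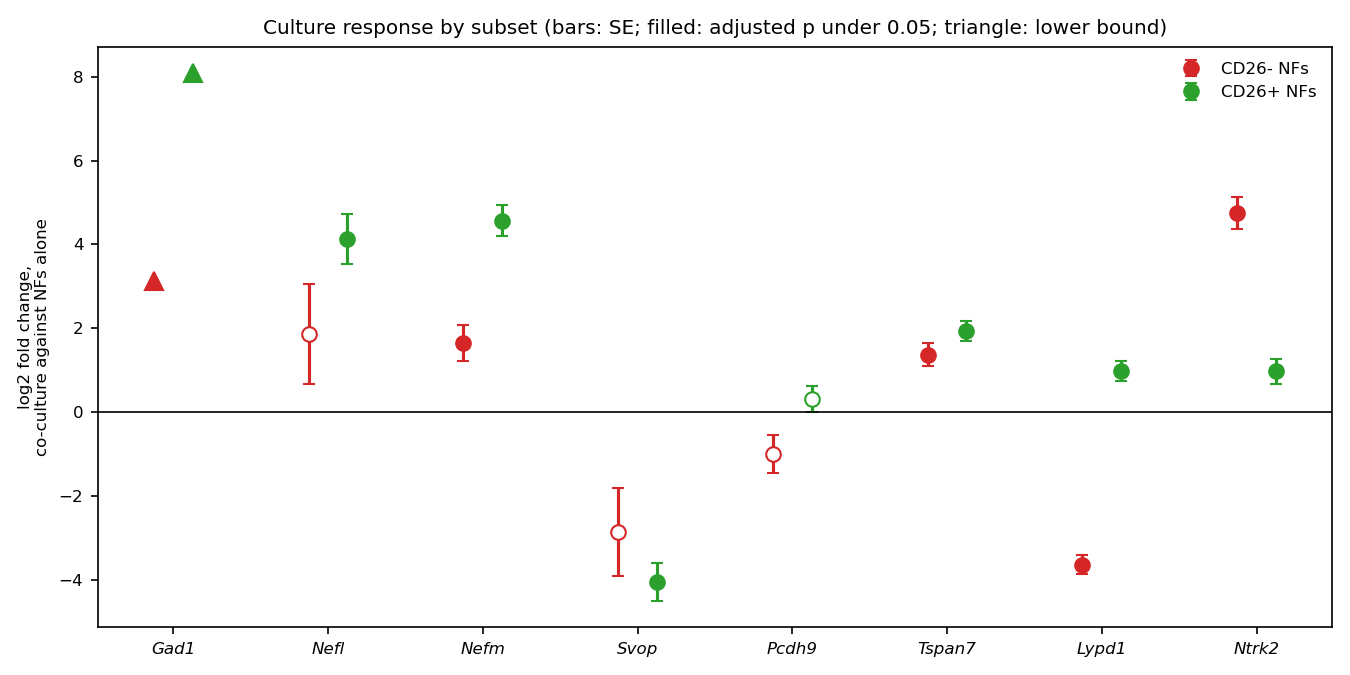
Log2 fold change of co-culture against NFs alone in CD26- and CD26+ NFs from the edgeR fit of the 6 NF libraries, with SE bars. Filled points passed an adjusted p-value of 0.05 and open points did not. The filled point of Nefl in CD26+ NFs is not read as a result, because Nefl entered the fit through the co-cultures. Triangles give Gad1 against 3 counts in NFs alone (3.13 in CD26- and 8.08 in CD26+ NFs). Lypd1 fell in CD26- and rose in CD26+ NFs, while Ntrk2 rose by 4.74 in CD26- and by 0.97 in CD26+ NFs.

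The culture response of CD26+ NFs minus that of CD26- NFs measures how far the subsets parted. Since differences between subsets were in view when the genes were chosen, these values are given without a p. The difference was 4.63 (SE 0.339) for Lypd1 and -3.77 (SE 0.441) for Ntrk2 on the log2 scale. It was 2.91 (SE 0.630) for Nefm, 2.27 (SE 1.92) for Nefl, 1.32 (SE 0.541) for Pcdh9, 0.56 (SE 0.346) for Tspan7 and -1.20 (SE 1.58) for Svop, whose sign reversed between the fits without gel 4 (-2.60) and without gel 5 (2.46). For Gad1, with 0 counts in both libraries of NFs alone, it cannot be estimated. In that fit 2 of the 8 genes passed, where 0.376% of all genes did, and nothing is read from that count.

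Over all 8 lists of pathways and families together, 95 of 169 genes were tested between subsets, and 7 were higher and 9 lower in CD26+ NFs, 16.8% beside the 7.53% of all genes. In the culture response 53 of 102 tested passed in CD26+ NFs and 44 of 102 in CD26- NFs, beside 34.2% and 30.8% of all genes. Of these, 11 and 6 had under 10 counts in both libraries of NFs alone and entered the fit through the co-cultures, so nothing is read from these totals. In the difference of the responses 1 of 102 passed, beside 0.376% of all genes, and that was Slc17a7, a vesicular glutamate transporter (-5.06, SE 0.941, edgeR adjusted p = 0.0402), a call lost with the gel as a random replicate block (adjusted p = 0.571) and with the tumor libraries in the fit (0.493). It went from 0.0621 to 6.48 and 5.75 CPM in CD26- NFs and from 1.68 to 4.30 and 4.74 CPM in CD26+ NFs. Of the list genes called between subsets, 15 of 16 passed without gel 1, 11 without gel 4 and 0 without gel 5, where edgeR called 17 genes in all. Of those called in the culture response, 10 of 53 in CD26+ NFs and 11 of 44 in CD26- NFs passed without gel 4, and 8 and 9 passed without gel 5. Of the genes of these lists named with a p, Syn1, Nes, Cd9 and Cd82 passed in both subsets whichever of the co-culture gels was left out. Cell type markers outside these lists were not part of that check.

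Neural transcription factors and the silencer Rest were measured as the last of these lists, with 11 of 26 genes tested. In co-culture 5 rose and 2 fell in CD26+ NFs and 3 rose and 1 fell in CD26- NFs, beside 34.2% and 30.8% of all genes called. Rest itself was at 62.1 to 84.3 CPM in NFs, with log2 fold changes of -0.10 (SE 0.210, edgeR adjusted p = 0.733) and -0.18 (SE 0.208, adjusted p = 0.559) in co-culture and -0.23 (SE 0.124, adjusted p = 0.285) between subsets. Sox11, a factor of developing neurons, was higher in CD26+ NFs over the 3 gels (1.18, SE 0.196, adjusted p = 0.0108). It rose in co-culture in both subsets and was at 22.2 to 28.8 CPM in co-cultured CD26+ NFs, while tumor cells of gel 4 held 129 CPM. Isl1, another such factor, was at 0.421, 3.02 and 2.55 CPM in CD26+ NFs, at most 0.485 CPM in CD26- NFs and 1.87 to 5.15 CPM in tumor cells.

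**Figure D4:**
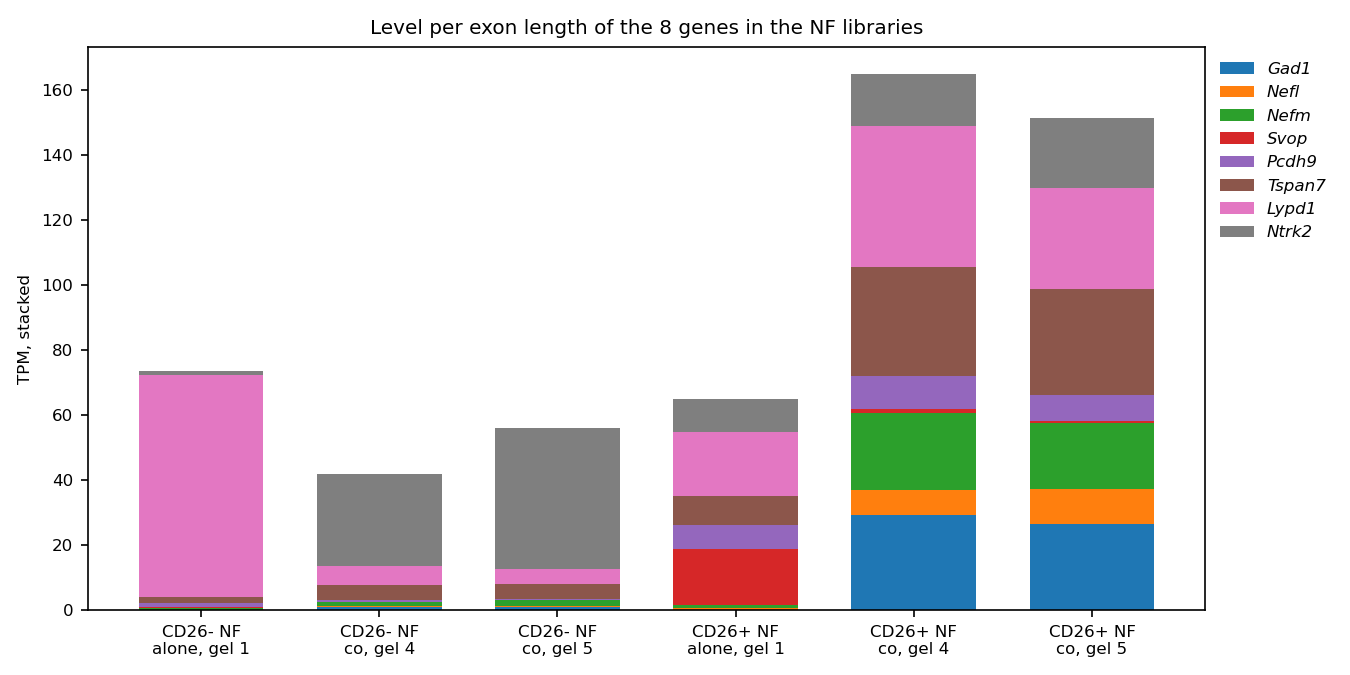
Stacked levels of the 8 genes per exon length (TPM, length-scaled CPM, linear axis) in the 6 NF libraries. The sum is 73.6 TPM in CD26- NFs alone, 64.8 TPM in CD26+ NFs alone, and 41.9 and 55.9 against 165 and 151 TPM in co-cultured CD26- and CD26+ NFs.

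Levels can be compared between the genes only per length, here as TPM over the exons of a gene. In CD26- NFs alone Lypd1 made up 92.6% of the summed TPM of the 8 genes, and in co-culture Ntrk2 made up 67.9% and 77.6%. In CD26+ NFs alone Lypd1 (19.6 TPM) and Svop (17.1 TPM) led, followed by Ntrk2 (10.0 TPM), Tspan7 (9.03 TPM) and Pcdh9 (7.46 TPM). In co-cultured CD26+ NFs the order was Lypd1 (43.3 and 31.2 TPM in gels 4 and 5), Tspan7 (33.7 and 32.5 TPM), Gad1 (29.1 and 26.4 TPM), Nefm (23.5 and 20.3 TPM) and Ntrk2 (16.0 and 21.4 TPM), with Svop last (1.29 and 0.671 TPM). The values of Lypd1 overlapped those of Tspan7, and those of Nefm overlapped those of Ntrk2, so these neighbours did not differ beyond the spread of the gels. Nefl (7.92 and 10.8 TPM) and Pcdh9 (9.96 and 7.92 TPM) changed places between the gels.

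The courses of the 8 genes over the 10 libraries can be set side by side as Pearson correlations of log2(CPM + 1), which are descriptions over libraries that share cell type and gel. Gad1, Nefl and Nefm lay closest to each other (0.972 for Gad1 with Nefl, 0.976 for Gad1 with Nefm, 0.965 for Nefl with Nefm). Svop stood at 0.0791 with Gad1. Tspan7, which tumor cells express, had the lowest value, -0.66 with Lypd1. Among 12318 genes that reached 5 CPM in a library, the most alike to Gad1 were Serpini1, Cma2 and Trank1 (0.986, 0.984 and 0.983). Those most alike to Nefl were Car4, Kit and Grip1 (0.996, 0.988 and 0.984), and to Nefm Tbp, Cma2 and Zfp760 (0.992, 0.989 and 0.987). For Svop they were Calca, Reln and Pm20d1 (0.984, 0.976 and 0.970), and for Pcdh9 Bola2, Nosip and Saa3 (0.975, 0.973 and 0.973). For Tspan7 they were Tfap2a, Pan2 and Ctnnb1 (0.986, 0.978 and 0.976). For Lypd1 they were Csf2rb, Kctd12b and Satb1 (0.992, 0.986 and 0.984), and for Ntrk2 Cabp1, Zdhhc14 and Notch3 (0.995, 0.993 and 0.991). With Spearman correlations only 3 of these 24 places kept their gene, and with a pseudocount of 0.1 CPM 13 did.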

How the data were processed

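RNA of 10 libraries was sequenced from sorted cells. The authors deposited raw read counts per gene, made with HISAT2 2.2.1 on GRCm38 per the submitters' processing notes. How reads were assigned to genes, by which program, annotation and strand setting, is not given in the sources used here. The 1 row lacking an ID summed to 0 and was dropped, and no column of another sample was present. Gene IDs matched GENCODE M21 for 55226 of 55486 genes (99.5%), of which 99.4% had the same coordinates.

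CPM used the library total. TPM used the union of a gene's exons. Tests were edgeR 4.0.16 quasi-likelihood fits (R 4.3.3, TMM scaling, filterByExpr) over all genes, Benjamini-Hochberg adjusted, and called under 0.05. The culture responses and their difference came from 1 fit of the 6 NF libraries, in which the spread rests on the 4 co-cultured libraries. The subset contrast used the 6 NF libraries, and tumor cells were fitted apart with the cell line as a term. Fits were tested on simulated data. DESeq2 1.42.0, limma 3.58.1, other scalings, filters and pseudocounts, an added fold criterion (absolute log2 fold change above 2), the gel as a block, and leaving out each gel were alternatives. The random block with a correlation from the additive model and the fit with tumor libraries were chosen after seeing the data. Where tumor libraries were added to fits of the culture responses, the cell line was not a term.

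The 8 genes and all lists were chosen with earlier results of these data known. Named were the 8 genes, per list and comparison at most the 4 genes past the threshold with the largest change, a few relatives whatever their values (Gad2, Nefh, Ina, Prph, Svopl, Sv2a, Lynx1, Bdnf, Ngfr and Rest), and per gene the 3 most alike. Rgs5, Abcc9, Tubb3 and the fall of Stmn2 were added after their values were seen. Replicate numbers are gel numbers, so libraries with the same number come from the same gel, and their deviations from group means correlated at 0.264, 0.190 and 0.0993 over 13490 genes. Nothing says that gels came from separate mice, so p-values measure the spread between these libraries, which may be technical. Promoter sequences are those of RefSeq on GRCm38.p6. A further allele of the tumor lines and a gene on the lists are not reported here.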

Additional observations from a re-analysis of the deposited data

Results flagged for a closer look

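Each of the following was picked out because an effect differed between the groups compared, in direction or in size. The culture response of CD26+ NFs minus that of CD26- NFs was 4.63 (SE 0.339) for Lypd1 and 1.32 (SE 0.541) for Pcdh9 on the log2 scale, and in each of these genes both co-culture gels moved up in CD26+ NFs and down in CD26- NFs. It was -3.77 (SE 0.441) for Ntrk2, which moved up in both subsets by different amounts. These 3 differences were in view when the genes were chosen and are given without a test. Tspan7 fell by 0.75 on the log2 scale (SE 0.111) in co-cultured tumor cells and rose in both NF subsets, and the difference between cell types was not tested.

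Among genes outside the chosen 8, the difference of the culture responses passed edgeR's quasi-likelihood test with Benjamini-Hochberg adjustment for Slc17a7 (-5.06, SE 0.941, adjusted p = 0.0402), Cspg4 (-2.57, SE 0.405, adjusted p = 0.0144) and Notch3 (-2.10, SE 0.366, adjusted p = 0.0272). None of them passed with the gel as a random replicate block (adjusted p = 0.571, 0.396 and 0.247) or with the tumor libraries in the fit (0.493, 0.629 and 0.557). These 3 genes rose in both subsets, and less in CD26+ NFs. Slc17a7 had 1 count in CD26- NFs alone. No group held 4 libraries, so none was examined for a library that stands apart.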

How the results depend on the processing

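Genes called numbered 5556 for the culture response of CD26+ NFs, 4997 for that of CD26- NFs, 61 for their difference, 1130 between subsets and 2942 in tumor cells. Leaving out a gel gave 413 to 504, 418 to 494, 0 to 0, 17 to 1299 and 406 to 1014. Of the 8 genes, leaving out a gel left 1 to 1 called of 7 in CD26+ NFs, 2 to 2 of 5 in CD26- NFs and 0 to 2 where 1 was called in tumor cells. The fits of the culture responses hold 1 library per NF group, assumed to vary like the tumor groups, each of which mixes the tumor lines. Those of the subsets hold 2 libraries per subset. In tumor cells, with the line as a term, leaving out a gel leaves the other line, 1 library per arm, with the spread taken from NFs. With an absolute log2 fold change above 2 added, 2161, 1857, 192 and 418 genes were called (CD26+ NFs, CD26- NFs, subsets, tumor cells), and 4, 3 and 0 of the 8 genes (CD26+ NFs, CD26- NFs, tumor cells). The difference of the responses called 38 genes with at least 1 CPM in 2 libraries, 97 with DESeq2, 18 with no filter, and 0 with the tumor libraries in the fit (916 at an unadjusted p under 0.05 in edgeR). With the gel as a replicate block it called 395 genes as a fixed term and 2 as a random effect. DESeq2 called 1574 genes in tumor cells. Without the filter 2 of the 8 genes were called there, Pcdh9 being the second (adjusted p = 0.0156).

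Reversed in sign was the difference of responses of Svop without gel 5, with -2.60 without gel 4 and 2.46 without gel 5 against -1.20. The replicate block as a random effect changed no other call of the 8 genes' culture responses than that of Nefm in CD26- NFs. A random block with a correlation from the 4-group model could not be fitted, and the additive model gave a correlation of -0.13. The subset ratios per gel kept their direction under TMM-scaled sizes and a pseudocount of 1 CPM. The cause of these changes was not tested. Svop in CD26- NFs and Nefl alone rest on 8 counts or fewer.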
